A study of Homo sapiens with 8 samples.

Results

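RFX7 peaks close to protein-coding genes were taken from both deposited peak lists of HCT116 cells, as every entry whose summit lay within 5 kb of either end of a protein-coding gene of RefSeq (GRCh38). By this rule 154 of 505 entries of the DMSO list (30.5%) and 204 of 622 entries of the Nutlin-3a list (32.8%) were near-gene peaks, 358 of 1127 in all. They lay near 153 genes for DMSO and 216 for Nutlin-3a, out of 20056 protein-coding genes. That is 0.763% and 1.08% of genes, respectively. In both lists were 126 genes (0.628%), and 243 genes (1.21%) had a peak in at least 1 list. HCT116 is an established line from a human colorectal carcinoma, and it carries functional p53. Cells received 10 µM Nutlin-3a, or its solvent DMSO, for 24 h. Each treatment had 2 samples precipitated with a commercial RFX7 antibody and 2 input samples, 8 samples in all. The deposited files give 1 peak list per treatment and no value per sample, so sample depth is unknown and replicate error could not be estimated for any contrast of the treatments. Peaks are not replicates, and every interval or test below covers counting error over peaks, genes or promoters.

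RFX factors bind DNA through a winged-helix domain and recognise the X-box, an imperfect inverted repeat. RFX5 works in a complex that drives MHC class II genes, and other members of the family control genes of cilia. RFX7 has been placed downstream of p53, the tumour suppressor that Nutlin-3a stabilises by blocking its negative regulator MDM2, and it activates genes that restrain growth.

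Sequences at the strongest promoter peaks show which short words of DNA lay under the summits. The stretches below come from the RefSeq promoter windows (GRCh38.p14), which run from 250 bases before to 50 bases after an annotated start. They belong to peaks with high fold enrichment and a whole-number read pileup (explained below) that lay upstream of the start and outside any protein-coding gene. PDCD4 and CCDC86 are added to the 6 highest because their stretches lack the first word. Each reads 5′ to 3′ on the strand named. Capitals mark GTTGC, the core of an X-box arm, or its reverse complement GCAAC, and CCAAT, the CCAAT box, or its reverse complement ATTGG.
DIP2A, chr21:46458751-46458850, plus strand: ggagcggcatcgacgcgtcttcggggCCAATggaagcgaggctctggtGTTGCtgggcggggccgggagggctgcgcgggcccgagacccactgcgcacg
MXD4, chr4:2262268-2262359, minus strand: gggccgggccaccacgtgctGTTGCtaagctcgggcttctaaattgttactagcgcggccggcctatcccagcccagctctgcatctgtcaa
CKS2, chr9:89311005-89311104, plus strand: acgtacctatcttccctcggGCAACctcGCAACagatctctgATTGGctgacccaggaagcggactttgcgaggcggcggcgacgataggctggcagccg
DDIT4, chr10:72273725-72273824, plus strand: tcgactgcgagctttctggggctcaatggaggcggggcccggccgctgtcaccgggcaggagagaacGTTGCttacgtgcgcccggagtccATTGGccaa
TOP2B, chr3:25664983-25665082, minus strand: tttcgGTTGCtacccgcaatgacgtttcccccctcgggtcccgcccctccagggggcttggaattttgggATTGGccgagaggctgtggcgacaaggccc
SOX12, chr20:325368-325467, plus strand: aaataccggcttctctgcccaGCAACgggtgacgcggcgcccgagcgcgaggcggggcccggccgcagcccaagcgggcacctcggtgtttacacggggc
PDCD4, chr10:110871781-110871880, plus strand: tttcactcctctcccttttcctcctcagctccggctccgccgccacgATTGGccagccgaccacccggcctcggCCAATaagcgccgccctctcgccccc
CCDC86, chr11:60842042-60842112, plus strand: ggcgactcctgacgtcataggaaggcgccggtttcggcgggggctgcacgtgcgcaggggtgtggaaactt
The DIP2A, CKS2, DDIT4 and TOP2B stretches held both words. The MXD4 and SOX12 stretches held the X-box core without a CCAAT box, the PDCD4 stretch held 2 CCAAT boxes, and that of CCDC86 held neither. Stretches reach at most 50 bases to each side of the summit. Farther off in the same windows, CCAAT lay 89 bp from the summit at MXD4 and 60 bp at SOX12, and GTTGC 80 bp at CCDC86. DIP2A encodes a protein of the disco-interacting family, and MXD4 a partner of MAX that antagonises MYC. CKS2 binds cyclin-dependent kinases, DDIT4 restrains mTORC1 signalling, TOP2B is a DNA topoisomerase, and SOX12 is a transcription factor. PDCD4 inhibits the translation initiation helicase.

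Promoter windows that contained a near-gene summit held these words more often than promoters at large. There were 76 such windows of 72 genes, under 67 peaks, and 22078 distinct windows of 15743 protein-coding genes in the whole table. Some windows overlap and share sequence. GTTGCNA, the longer form of the X-box arm that the search started from, was found on either strand in 27 of the 76 (35.5%, 95% Wilson interval 25.7 to 46.7%), against 9.17% of all windows. Its core GTTGC, which every GTTGCNA match contains, was in 57 windows (75%, 64.2 to 83.4%), against 33.8%. CCAAT was in 61 windows (80.3%, 70.0 to 87.7%), against 34.7%. Both words together were in 43 windows (56.6%, 45.4 to 67.1%), against 12.7%. The letters GTTGC and CCAAT were chosen after the sequences were seen, so their shares are descriptions. The bound windows were also richer in G and C, with a median of 67.5% against 62.3%, and the part of base composition in these shares was not tested. A full X-box, written as GTTNC, 4 bases of any kind and then GNAAC, was in 0 of 76 windows, so its share may reach 3.95% (a count of 3 in place of 0), while the 95% Wilson interval ends at 4.81%. It was in 1.06% of all windows.

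**Figure D1:**
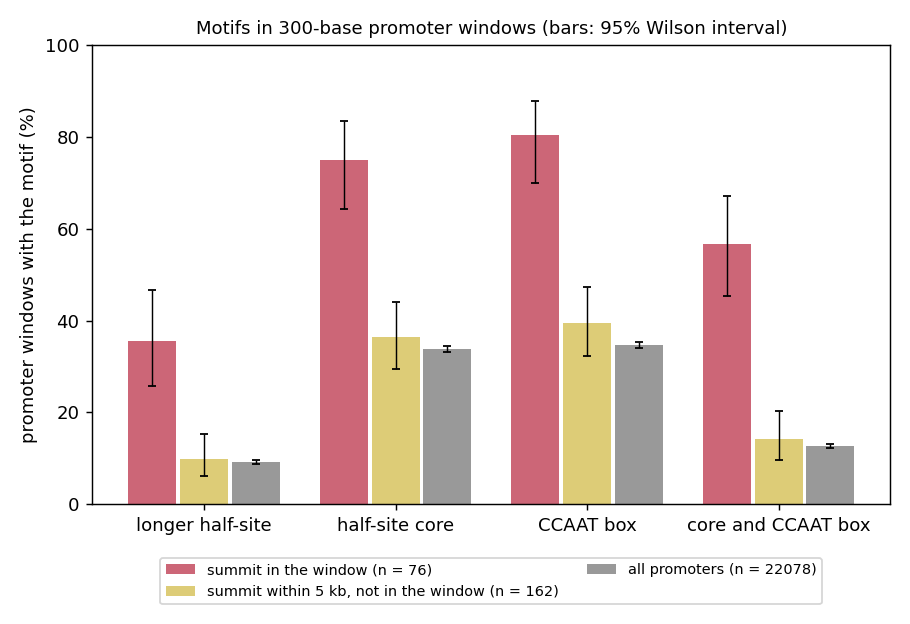
Share of promoter windows of 300 bases that hold each word on either strand (vertical axis, percent), for 76 windows with a near-gene summit, 162 windows whose start lies within 5 kb of a summit that is outside the window, and all 22078 windows. Error bars are 95% Wilson intervals. The windows with a summit stand above both other groups for each word, at 35.5, 75, 80.3 and 56.6%.

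These words were concentrated in the windows that held the summit. The 162 windows whose start lay within 5 kb of a summit, but which did not contain it, held GTTGCNA in 9.88%, GTTGC in 36.4% and CCAAT in 39.5%. Their median G and C content was 66.0%. These shares were close to those of all windows. Within the bound windows, the nearest GTTGC lay a median of 43 bp from the summit (51 peaks) and the nearest CCAAT a median of 21 bp (53 peaks). Of the 67 peaks, 28 had a GTTGC and 41 a CCAAT within 50 bp of the summit. Peaks were also split by whether their deposited fold and p correspond to a whole-number read pileup under the formulas of MACS2, the peak caller (tolerance 0.001). Entries without one were treated here as having a less certain fold, rank and summit. Why they lack one was not tested. Among peaks with one, the medians were 28 bp for GTTGC (33 peaks) and 19 bp for CCAAT (33 peaks). Among those without, they were 53 bp (18 peaks) and 27 bp (20 peaks).

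The windows were also grouped by the list whose summit fell inside them, which does not make a peak particular to that list. All 9 windows with a DMSO summit alone lay under peaks that overlapped a Nutlin-3a entry, and those with a Nutlin-3a summit alone include shared peaks such as the ones at PNRC2 and DIP2A. In the 25 windows with a summit in each list, GTTGC was found in 84.0% (65.3 to 93.6%) and CCAAT in 80.0% (60.9 to 91.1%). The 42 windows with a summit in the Nutlin-3a list alone had 69.0% (54.0 to 80.9%) and 76.2% (61.5 to 86.5%), and the 9 with a summit in the DMSO list alone had 77.8% (45.3 to 93.7%) and 100% (70.1 to 100%). For each word all 3 intervals overlap.

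Some distances between both words recurred among the bound windows. Counted from the first base of GCAAC to the first base of a following ATTGG on the same strand, an offset of 22 to 24 bp occurred in 8 of the 76 windows (10.5%), against 34 of 22078 windows (0.154%). Single offsets of 37, 45 and 75 bp occurred in 3 windows each, and other orders of the words were not counted. Bound windows also held GTTGC and CCAAT together more often (56.6% against 12.7%). The part of this in the contrast was not tested. The range of 22 to 24 bp was chosen after the offsets were seen. The 8 stretches are shown because they share this arrangement; each reads from GCAAC to ATTGG on the strand named (GRCh38.p14), with those 2 words in capitals.
PNRC2, chr1:23959721-23959749, plus strand: GCAACaggcggcggcccgcttctcATTGG
DIP2A, chr21:46458777-46458803, minus strand: GCAACaccagagcctcgcttccATTGG
VCP, chr9:35072822-35072849, plus strand: GCAACgctacgcttcctcgacggATTGG
CKS2, chr9:89311025-89311051, plus strand: GCAACctcgcaacagatctctgATTGG
OTUD5, chrX:48958446-48958473, plus strand: GCAACagcctgagttctgcggtgATTGG
EMC9, chr14:24141696-24141723, minus strand: GCAACgttggggcgcggccgctgATTGG
DCP2, chr5:112976579-112976606, plus strand: GCAACtgagcagcttgaagacggATTGG
PRDM10, chr11:130002880-130002908, plus strand: GCAACctgatctcgacgttatatgATTGG
PNRC2, a nuclear receptor coactivator that also takes part in mRNA decapping, and DCP2, the decapping enzyme, were both among them. VCP is an ATPase that extracts ubiquitylated proteins from complexes and membranes. OTUD5 is a deubiquitylase, EMC9 a subunit of the membrane protein insertion complex of the endoplasmic reticulum, and PRDM10 a zinc finger transcription factor. The spacer differed in sequence from gene to gene. Fold enrichment at these peaks ran from 4.69 at PRDM10 (rank 178 of the Nutlin-3a list) to 30.0 at PNRC2 (rank 2).

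**Figure D2:**
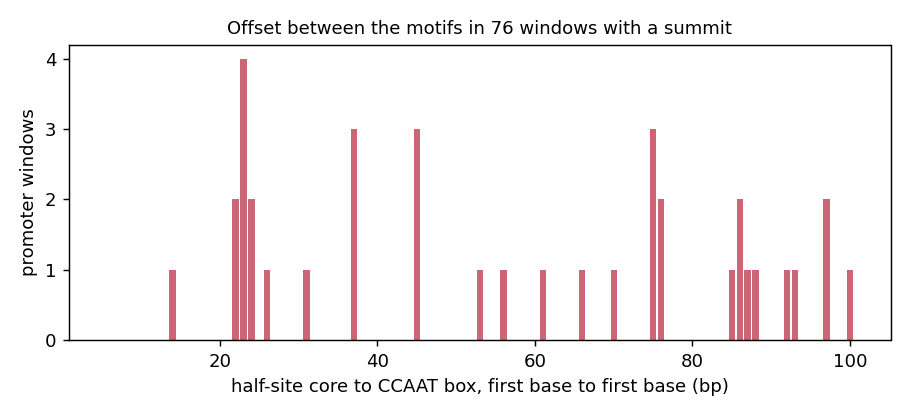
Number of bound promoter windows (vertical axis) with each offset from the X-box core to the CCAAT box (horizontal axis, bp from first base to first base, 76 windows). The bars at 22, 23 and 24 bp hold 2, 4 and 2 windows, and no other offset reaches 4.

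For most near-gene peaks the nearest gene end was a start, at any distance up to 5 kb. This held for 110 DMSO and 151 Nutlin-3a peaks, and the nearest end was a terminus for 15 and 18. For 29 and 35 peaks the strand of the gene was not given in the tables used here. The median distance to the nearest gene end was 810 bp for DMSO and 566 bp for Nutlin-3a. Within 250 bp of a gene end lay 46 DMSO and 79 Nutlin-3a peaks, and within 1 kb 88 and 121. Where a start was known within 1 kb, 55 of 81 DMSO summits and 76 of 105 Nutlin-3a summits were upstream of it. Their median position was -138 bp (quartiles -316 and 132 bp) and -113 bp (quartiles -209 and 10 bp). Inside a gene lay 92 DMSO and 108 Nutlin-3a summits. Of the DMSO peaks, 114 were near a single gene, 32 near 2 genes and 8 near 3 or more. The Nutlin-3a counts were 152, 41 and 11.

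**Figure D3:**
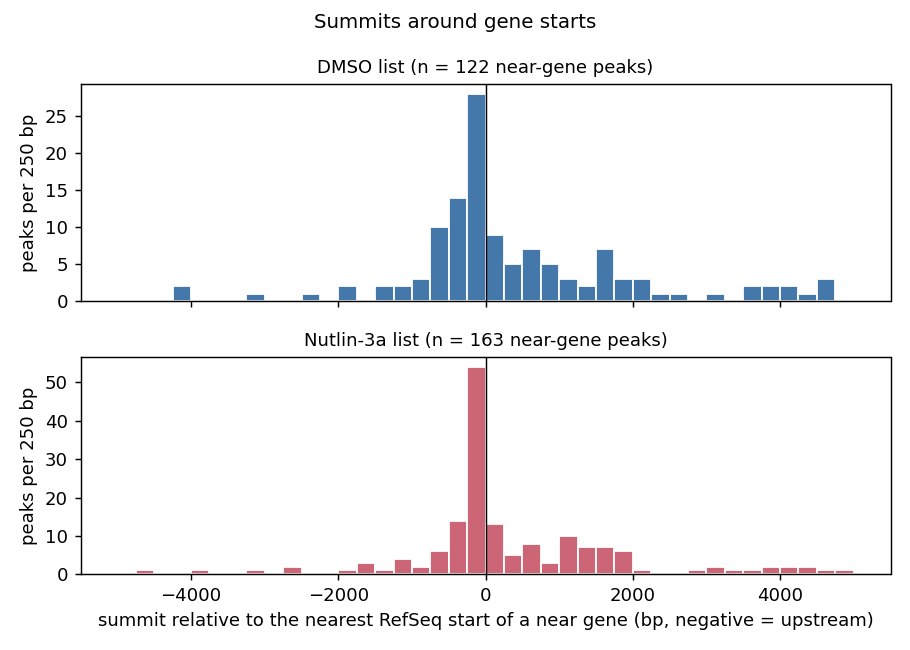
Number of near-gene peaks per 250 bp (vertical axis) by the position of the summit relative to the nearest start of a near gene (horizontal axis, bp, negative is upstream), for 122 DMSO peaks (top) and 163 Nutlin-3a peaks (bottom) with a start within 5 kb. The tallest bar in both lists covers the 250 bp upstream of the start, with 28 and 54 peaks.

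The median fold enrichment of near-gene peaks was 4.26 for DMSO (range 2.13 to 19.3) and 4.79 for Nutlin-3a (range 1.37 to 32.3). Fold enrichment and −log10 q are the authors' values and describe or rank a peak only within its own list. The other entries of the lists had medians of 2.13 and 2.25. Those of them with no further entry within 50 kb had 4.06 and 4.34. By −log10 q the order was the other way, with medians of 9.71 and 15 for near-gene peaks against 22.1 and 27.2 for the other entries. Other entries with none within 50 kb had medians of 12.2 and 13.7. Against these, near-gene peaks were lower in the DMSO list and higher in the Nutlin-3a list. Near-gene peaks made up 7 of the 10 entries with the highest fold in each list, and 29 and 35 of the highest 50. By −log10 q they made up 1 of the highest 10 in each list, and 5 and 15 of the highest 50. They were wider than the others, with medians of 251 and 319 bp against 111 and 150 bp.

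Protein quality control genes carried the near-gene peak with the highest fold enrichment of the Nutlin-3a list. It lay at chr10:72331864-72332630, downstream of the terminus of DNAJB12, a co-chaperone of the endoplasmic reticulum membrane. Its fold was 32.3 and its −log10 q was 245. Its DMSO counterpart had a fold of 6.15, a −log10 q of 113 and rank 59, without a whole-number pileup. At VCP, the summit lay 67 bp upstream of the start in the Nutlin-3a list (fold 23.5, rank 9) and 143 bp upstream in the DMSO list (fold 13.1, rank 10). The same peak was within 5 kb of FANCG, a subunit of the Fanconi anaemia core complex. UBB, a polyubiquitin gene, ranked 95 (DMSO) and 37 (Nutlin-3a), with folds of 5.07 and 11.3. Gene lists by function are used in what follows, and their shares are read beside the 1.21% of all protein-coding genes with a peak. The lists were drawn up with earlier results of these data known, so shares of lists are descriptions.

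Genes of mRNA decay and the antiproliferative TOB and BTG family held several of the strongest peaks. Of 52 listed genes, 5 were bound under DMSO and 6 under Nutlin-3a, 11.5% in either. PNRC2 had a −log10 q of 192 (DMSO) and 376 (Nutlin-3a), ranks 14 and 3 by that measure. PNRC1, its relative, had 223 and 224, ranks 10 and 19. Its fold was 17.4 (DMSO) and 4.75 (Nutlin-3a), both without a whole-number pileup. CNOT1, the scaffold of the CCR4-NOT deadenylase, ranked 15 and 17 by fold, with folds of 11.5 and 17.9. TOB2 and TOB1 encode adaptors that bring the deadenylase to mRNA. The TOB2 peak lay 1778 bp (DMSO) and 1706 bp (Nutlin-3a) upstream of the start and ranked 7 and 11. The TOB1 peak lay 406 and 664 bp from the start and ranked 65 and 64. DCP2 had a peak in the Nutlin-3a list alone, with a fold of 4.71 and rank 175.

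Regulators of PI3K, mTOR and inositol phosphates were bound in both lists. The same 6 of 61 listed genes (9.84%) had a peak in each. IP6K2, an inositol hexakisphosphate kinase, had folds of 17.8 (rank 4, DMSO) and 24.1 (rank 7, Nutlin-3a). DDIT4 had 10.2 (rank 21) and 18.3 (rank 16), with a whole-number pileup in both lists. PIK3R2, a regulatory subunit of PI3K, had 6.0 and 6.22. PIK3IP1, a transmembrane inhibitor of PI3K, had 5.78 and 6.98. SESN3, a sestrin that restrains mTORC1, had 4.46 and 10.4. PDCD4 had 8.44 (rank 31) and 7.46 (rank 71), with summits 97 and 308 bp upstream of its start.

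Cell cycle genes, activators and inhibitors alike, had peaks. Of 47 listed, 5 were bound under DMSO and 6 under Nutlin-3a, 12.8% in either. The highest was CCNG2, the gene of cyclin G2, whose peak lay 574 and 616 bp upstream of the start with −log10 q of 80.8 and 157. The strongest peaks of the D-type cyclin genes CCND1 and CCND2 lay away from the nearest gene end. The strongest CCND1 peak lay 2586 and 2427 bp from it with folds of 6.14 and 5.0. In all, 4 DMSO and 3 Nutlin-3a entries were near CCND1, and the closest lay 186 and 173 bp from a gene end. The CCND2 peak lay 1923 and 2048 bp from its nearest end, with folds of 5.82 and 6.12. CDK4, the kinase partner of these cyclins, had a peak 207 and 163 bp upstream of its start. Inhibitors of these kinases were also near peaks. CDKN1B had 4 DMSO and 5 Nutlin-3a entries, with −log10 q of at most 7.30 and 12.2. CDKN2D had an entry in the Nutlin-3a list alone, with a fold of 5.57 and a −log10 q of 16.2. CKS2, which was on no list, ranked 6 (fold 15.7) and 15 (fold 18.8), with a whole-number pileup in both lists and summits 146 and 140 bp upstream of its start.

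MYC, its antagonists and AP-1 genes were also near peaks. Of 29 genes, 5 had a peak in either list (17.2%): MXD4, JUNB and MYC in both, MXI1 in the Nutlin-3a list alone and JUND in the DMSO list alone. MXD4 held the entry with the highest fold of the DMSO list, at chr4:2262098-2262629 and 208 bp upstream of the start (fold 19.3, −log10 q 136, rank 1). The Nutlin-3a counterpart had a −log10 q of 138 but a fold of 4.27 and rank 213, without a whole-number pileup, so this rank was treated as less certain. MXI1, a relative of MXD4, had a peak in the Nutlin-3a list alone (fold 6.81, rank 85), 1114 bp downstream of a start. JUNB had folds of 4.18 and 4.85, past the end of the gene. JUND had an entry in the DMSO list alone (fold 4.77, −log10 q 13.8). MYC itself had a weak entry in each list, with folds of 2.44 and 3.41, and these entries did not overlap.

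Chromatin genes with peaks included TSPYL1, TSPYL2 and ATRX, 3 of 21 listed for nucleosome assembly (14.3%), each in both lists. TSPYL1 and TSPYL2 belong to the nucleosome assembly protein family. TSPYL1 had folds of 8.62 (rank 27, DMSO) and 4.16 (rank 225, Nutlin-3a). TSPYL2 had 5.81 and 9.28, and its summits lay 221 and 74 bp from the start. ATRX, a remodelling ATPase that helps to deposit a histone variant, had 3.83 and 8.44. Of 46 histone demethylases and methyltransferases, KDM4A alone had a peak (2.17%). It ranked 8 in both lists, with folds of 15.1 and 23.7 and summits 263 and 315 bp upstream of the start.

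**Figure D4:**
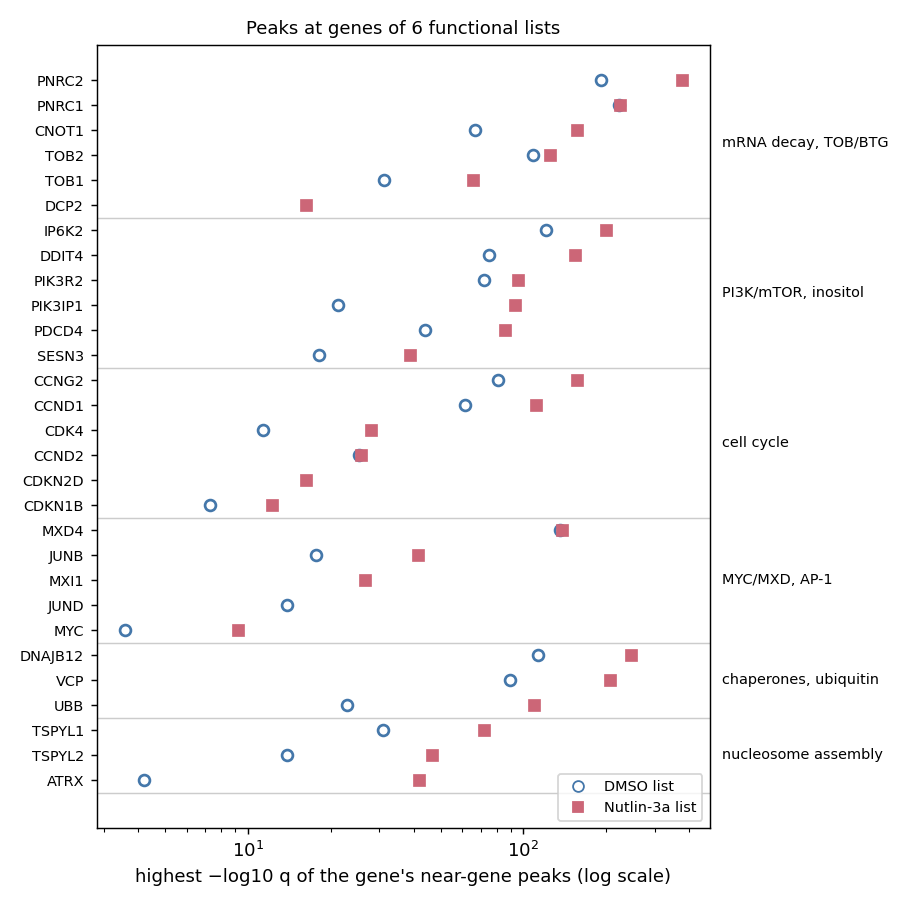
Highest −log10 q among the near-gene peaks of each gene (horizontal axis, log scale) for 29 genes of 6 functional lists (vertical axis), in the DMSO list (open circles) and the Nutlin-3a list (filled squares). A missing symbol means no peak within 5 kb in that list, as for DCP2, CDKN2D and MXI1 in the DMSO list and JUND in the Nutlin-3a list. PNRC2 reaches 192 and 376, and MYC 3.56 and 9.16.

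In several other gene lists, 0 to 3 genes had a peak. Of 49 direct p53 targets, TP53INP1 alone was near a peak (2.04%), with folds of 9.85 and 15.1 and ranks 23 and 20. It encodes a p53-induced protein of stress responses and was also the only gene of 47 for autophagy and lysosomes (2.13%). PDCD4 was the only one of 39 apoptosis regulators (2.56%). Of 25 MHC genes, 0 had a peak within 5 kb. Within the RFX family and its partners, 1 of 12 genes had a peak (8.33%), RFX5, with folds of 8.51 (rank 29) and 20.1 (rank 12) and summits 76 and 21 bp from its start. Of 69 ciliary genes 2 had peaks (2.9%), TTC8 of the BBSome in both lists and IFT80 of intraflagellar transport in the Nutlin-3a list. The entries near IFT80 were nearer to SMC4, the strongest lying 2252 bp from an end of SMC4 and 2677 bp from one of IFT80. Of 64 small GTPases and their regulators 2 did (3.12%), RAP2A in both lists (folds 12.7 and 21.8, ranks 11 and 10) and ARL15 in the Nutlin-3a list. DNA repair and replication had 3 of 72 (4.17%). These were FANCG and the single-strand break repair scaffold XRCC1 in both lists, and REV3L, the catalytic subunit of DNA polymerase zeta, in the Nutlin-3a list. The FANCG peak is the one at the VCP start described above. Each share in these classes rests on 3 genes or fewer.

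Genes recalled as RFX7 targets from the authors' publications were bound at 16 of 19 (84.2%), 12 of them in both lists. This list was chosen by the same group from RFX7 data and is not independent evidence. Of the 16, 4 had a peak in the Nutlin-3a list alone: ABAT, the GABA transaminase gene (fold 5.78), ARL15 (4.65), the amino acid transporter gene SLC43A2 (4.54) and REV3L (2.84). Their −log10 q values ran from 7.71 at REV3L to 25.9 at ARL15.

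Several strong peaks outside the lists lay near starts. Others did not have a known start nearby, such as those at PTMS and UBE2H. Ranked 24 and 33 in the Nutlin-3a list, these lay 1939 and 3936 bp from a gene end of unknown type. In the Nutlin-3a list, RCL1, a protein of ribosomal RNA processing, ranked 14 with a fold of 19.5 and a summit 253 bp upstream, and rank 25 in the DMSO list with 9.67. TOP2B ranked 19 with a fold of 16.4, and 179 in the DMSO list with 3.62, where the entry had no whole-number pileup. CIC, a transcriptional repressor, ranked 30 (fold 12.5) and 18 (fold 11). CKAP2 and VPS36 shared a peak of rank 34 (fold 11.8) and 28 (fold 8.60). SOX12 ranked 25 and 37, with folds of 13.4 and 7.86. The peak at DIP2A had folds of 27.5 (rank 5, Nutlin-3a) and 6.46 (rank 51, DMSO), the second without a whole-number pileup.

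Divergent gene pairs, in which starts on opposite strands lay within 1 kb of each other and of the summit, were found at 7 DMSO and 10 Nutlin-3a peaks. Among peaks within 1 kb of a known start that was 8.64% (4.25 to 16.8%) and 9.52% (5.26 to 16.6%). In the table of promoter windows, windows of the same coordinates were counted once. Of its 15743 protein-coding genes, 1926 (12.2%) belonged to such a pair, a share inside both intervals. For genes only the distance between the starts counted, while a peak needed both starts within 1 kb of its summit. The shares of peaks and of genes, here and below, are thus not the same measure. There were 11 pairs in all, 6 of them in both lists. Pairs of a coding and a non-coding gene were met at 17 DMSO peaks (21.0%, 13.5 to 31.1%) and 20 Nutlin-3a peaks (19.0%, 12.7 to 27.6%). Of those 15743 genes, 10.2% had such a partner, a share below both intervals; these are peaks against genes, with no test.

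The 6 pairs of both lists were TSPYL1/DSE, ZNF490/ZNF791, GART/SON, RPS6KA5/DGLUCY, HNRNPUL2/TTC9C and BRF1/BTBD6. At TSPYL1/DSE, where the starts are 156 bp apart, the DMSO summit lay between them, 81 bp from the TSPYL1 start and 75 bp from that of DSE, an epimerase of dermatan sulfate synthesis. The Nutlin-3a summit lay 305 bp inside TSPYL1, in an entry without a whole-number pileup. At GART/SON, a purine synthesis gene and a splicing cofactor gene with starts 146 bp apart, both summits lay between the starts, with folds of 5.30 and 11.3. ZNF490 and ZNF791 encode zinc finger proteins with starts 107 bp apart. Their fold was 3.85 (DMSO) and 11.5 (Nutlin-3a). The RPS6KA5/DGLUCY peak (folds 7.66 and 10.1) lay to one side of both starts of the pair. Its summits were 200 bp (DMSO) and 139 bp (Nutlin-3a) upstream of another annotated start of RPS6KA5. HNRNPUL2/TTC9C, with the widest gap of 720 bp, had its summit near the middle in both lists. BRF1, a factor of RNA polymerase III transcription, and BTBD6 had starts 58 bp apart and folds of 4.30 and 3.72.

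Pairs met in 1 list had folds of at most 4.51. In the Nutlin-3a list these were CFAP184/TADA2B (fold 4.51), MPC2/DCAF6 (4.43), SKA2/PRR11 (4.40) and PPIL6/SMPD2 (2.65). TADA2B belongs to a histone acetyltransferase complex, MPC2 to the mitochondrial pyruvate carrier and SKA2 to the kinetochore. In the DMSO list it was HAGH/FAHD1, a pair of metabolic enzymes, with a fold of 4.10 and a −log10 q of 2.10. The summit lay between the starts at 3 of 7 DMSO and 6 of 10 Nutlin-3a peaks, with median gaps of 146 and 182 bp.

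Rank within the lists was compared over 101 pairs of near-gene peaks, each the best overlap of the other. By fold the Spearman correlation of ranks was 0.69, by −log10 q 0.90, and over the 30 pairs with a whole-number pileup in both lists 0.89 by fold. These values are descriptions across peaks that share libraries. Ranks by fold were closest at KDM4A (8 and 8), VCP (10 and 9), RAP2A (11 and 10) and CNOT1 (15 and 17), among others. Neither entry of any of these named pairs had a whole-number pileup, so these ranks were treated as less certain too. The same holds for IP6K2, TOB2, CIC and CKAP2. Ranks by fold lay far apart at MXD4, PNRC1, TSPYL1, DNAJB12, PNRC2 and TOP2B, where at least 1 entry had no whole-number pileup. They also lay far apart at pairs with one in both lists, such as EBAG9 (127 and 26), SPRYD3 (116 and 46), FAT1 (155 and 263) and CDKN1B (178 and 298). By −log10 q, MXD4 stood at 35 and 56, PNRC1 at 10 and 19 and EBAG9 at 285 and 144. In 90 of the 101 pairs the Nutlin-3a entry was the wider one. Summits of paired entries were a median of 104 bp apart. This was 34 bp for the 30 pairs with 2 whole-number pileups and 132 bp for the other 71.

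**Figure D5:**
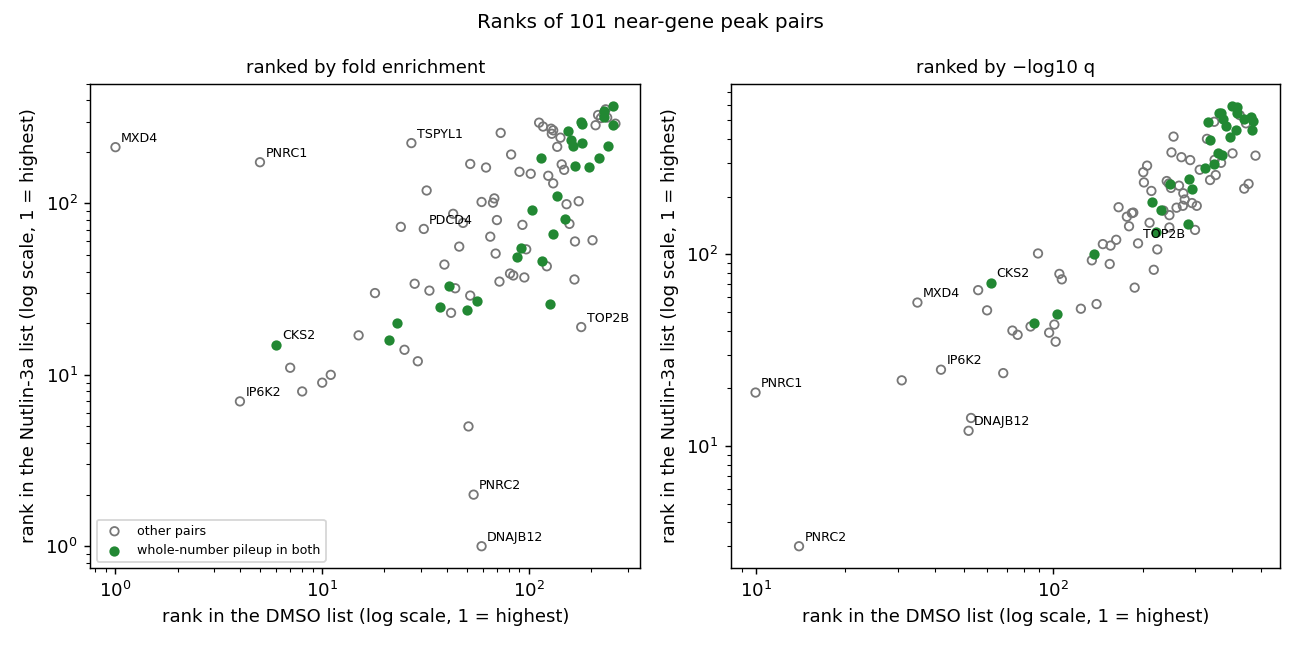
Rank of 101 paired near-gene peaks in the DMSO list (horizontal axis) and the Nutlin-3a list (vertical axis), both on log scales with 1 as the highest, by fold enrichment (left) and −log10 q (right). Filled points are the 30 pairs with a whole-number pileup in both lists. MXD4 and DNAJB12 lie far from the diagonal on the left, at ranks 1 and 213 and 59 and 1, and nearer to it on the right.

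Near-gene peaks of the DMSO list overlapped an entry of the other list by at least 1 bp in 109 of 154 cases (70.8%, 63.2 to 77.4%), against 266 of 351 other entries (75.8%, 71.0 to 80.0%; Fisher's exact test, two-sided, p = 0.269). In the Nutlin-3a list this was 103 of 204 (50.5%, 43.7 to 57.3%) against 251 of 418 (60.0%, 55.3 to 64.6%; Fisher's exact test, p = 0.0252, or 0.0504 after Benjamini-Hochberg adjustment over these 2 comparisons). Over whole lists, 74.3% of DMSO and 56.9% of Nutlin-3a entries were shared. Against other entries with none within 50 kb the direction turned. All near-gene peaks were kept here, though only 99 DMSO and 138 Nutlin-3a ones had no further entry within 50 kb. Of the other entries with none within 50 kb, 55.4% were shared in the DMSO list, against 70.8% of all near-gene peaks (Fisher's exact test, p = 0.0157). In the Nutlin-3a list this was 44.0% against 50.5% (Fisher's exact test, p = 0.258). Shared near-gene peaks had a higher median fold than unshared ones, 4.92 against 3.49 for DMSO and 6.60 against 4.26 for Nutlin-3a. With a −log10 q of at least 10, 2 of 45 unshared DMSO peaks remained and 41 of 101 unshared Nutlin-3a peaks. Among all near-gene peaks, 76 of 154 and 128 of 204 remained.

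Unshared near-gene peaks of the Nutlin-3a list had folds up to 7.88. The highest 5 were at SOX4 (fold 7.88, rank 65, 127 bp upstream of the start), NICN1 (7.82, rank 67), CCDC86 (7.60, rank 69), MXI1 (6.81, rank 85) and DOLPP1 (6.67, rank 89). SOX4 is a transcription factor, and DOLPP1 recycles the dolichol carrier of protein glycosylation. In the DMSO list the highest 5 were IBSP, a bone matrix gene (fold 5.19, rank 89), SOX4 (5.12, rank 91), JUND (4.77, rank 107), the ZNRF1 and LDHD peak (4.63, rank 113) and a second MXD4 entry (4.49, rank 119). SOX4 thus had entries in both lists that did not overlap, 574 bp downstream of the start in the DMSO list. Of the unshared entries, 20 of 45 DMSO and 28 of 101 Nutlin-3a entries lay near a gene with any entry in the other list. These counts include genes unlike SOX4, such as MXD4 and CCND1, where further entries of both lists did overlap. By gene, 27 of 153 were met in the DMSO list alone and 90 of 216 in the Nutlin-3a list alone. The lists differ in length (505 and 622 entries) and their depth is unknown.

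A smaller set of genes carried runs of entries. Near-gene entries fell into 117 loci for DMSO and 165 for Nutlin-3a, of which 102 and 143 held a single entry. In each list 9 loci held 3 or more entries, 40 and 35 entries in all. Their median fold was 3.30 and 3.80, and none was above 6.14 and 6.20. Entries in loci of 1 or 2 had medians of 4.83 and 5.30. The entries in runs also lay farther from gene ends, at medians of 1210 and 1580 bp against 518 and 289 bp. The runs included the developmental genes HOXA9 and HOXA10 (5 entries in each list), the chromatin gene BAHCC1 (7 and 5), the cadherin-related gene FAT1 (4 and 5), HMGA2, which encodes an architectural chromatin protein (4 and 3), and CDKN1B and CCND1. BMP4, a growth factor gene, reached 3 entries in the DMSO list, and IGF2BP3, an RNA-binding protein gene, reached 3 in the Nutlin-3a list. The widest near-gene entry covered 3953 bp at TNRC18 in the Nutlin-3a list, with a fold of 3.44.

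At the limit of 5 kb, the last entries inside were at TNRC18 (4720 bp, fold 3.41), TCF7L2 (4736 bp, 2.81) and MKNK2 (4833 bp, 8.41) in the DMSO list. The first outside were at BAHCC1 (5362 bp, 3.53), TCF7L2 (5473 bp, 3.04) and LOC112268044 (5705 bp, 1.27). In the Nutlin-3a list the last inside were at BAHCC1 (4639 bp, 3.49), LOC124905450 (4680 bp, 1.37) and TCF7L2 (4841 bp, 3.56), and the first outside at BAHCC1 (5283 bp, 2.88), LOC124905450 (5386 bp, 1.56) and LOC112268044 (5711 bp, 1.52). Apart from MKNK2, which encodes a kinase of translation initiation, these entries ranked 185 or lower by fold.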

How the data were processed

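RFX7 binding in HCT116 cells was measured by ChIP-seq, with 2 ChIP and 2 input samples per treatment. Reads were handled with bcl2fastq 2.20.0.422, Trimmomatic 0.39, cutadapt 2.10, SAMtools 1.10, Picard, MACS2 2.2.7.1 and bedtools 2.29.2 on hg38, per the submitters' processing notes. The aligner, settings and any pooling of replicates are not given in the sources used here. The authors deposited 1 narrowPeak list per treatment with no header. Each entry has a deposited fold enrichment (a ratio over background), a −log10 p and a −log10 q, and a score, which was not used. Start, end and summit offset are positions, as deposited. The depth of each sample is unknown.

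Summits (start plus offset) were set against protein-coding genes of the RefSeq table (GRCh38.p14), and a peak was near-gene within 5 kb of either gene end. Strand came from the RefSeq promoter table and was known for 15843 of 20056 genes (79.0%). Overlap needed 1 bp. Shares carry 95% Wilson intervals, which cover counting error only, and were compared with two-sided Fisher's exact tests. Analyses used Python 3.11.15, pandas 2.3.3, scipy 1.17.1 and matplotlib 3.10.9, and the scripts were tested on simulated data. Near-gene peaks within 1 locus are not independent, so the tests are descriptive. The members, the 16 gene lists (each gene matched) and the tests were chosen with earlier results of these data known. Named were the 15 near-gene peaks with the highest fold of each list, the 5 highest unshared ones, the 10 highest divergent pairs, list genes with a peak, and peaks at the limit. Other genes were added after their values were seen. Alternatives were other distances, ends, thresholds, overlap rules, comparators and motif letters. Some peaks and a count chosen by this rule are not reported here. Sequence outside the promoter windows was not analysed here.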

Additional observations from a re-analysis of the deposited data

How the results depend on the processing

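No paired analysis was possible because only 1 list of peaks per treatment was given, without values of single samples, and for the same reason no replicate was left out. Of 44 alternatives, 22 kept the direction, the side of the threshold or, for counts, stayed within 1.5 times. A limit of 1 kb left 88 DMSO and 121 Nutlin-3a near-gene peaks, at 91 and 130 genes. A −log10 q of at least 10 left 76 and 128 peaks, 91 DMSO genes, and 4 and 5 peaks at divergent pairs. The share of DMSO near-gene peaks in the other list was 33.1% against 65.8% of other entries with summits within 100 bp (Fisher's exact test, p = 1.1e-11). In Fisher's exact tests the direction turned with a −log10 q of at least 10 (97.4% against 85.0%, p = 0.00221), against other entries with none within 50 kb (70.8% against 55.4%, p = 0.0157) and at 1 kb (76.1% against 73.9%, p = 0.69). For each list the q limit was set on that list alone, with the second list as deposited. The 50 kb limit was set on the other entries alone, and all near-gene peaks were kept. In the Nutlin-3a list the difference (Fisher's exact test) was no longer past 0.05 with a −log10 q of at least 10 (68.0% against 69.6%, p = 0.735) and at 1 kb (54.5% against 57.5%, p = 0.609), and it turned against entries with none within 50 kb (50.5% against 44.0%, p = 0.258). It kept its direction and stayed past 0.05 with summits within 100 bp (25% against 55.3%, Fisher's exact test, p = 6.33e-13) and with an overlap of 50% of both peaks (38.2% against 48.6%, Fisher's exact test, p = 0.0163). The cause of these changes was not tested. The rank correlation of 0.69 became 0.90 by −log10 q and 0.89 with a whole-number pileup in both lists. Windows with GTTGCNA (35.5%) fell to 18.1% of the 238 windows with a start within 5 kb of a summit. Other letters gave 0.0% (full X-box), 75% (GTTGC) and 80.3% (CCAAT). The whole-number pileup, GTTGC and CCAAT, leaving out loci of 3 or more entries, and the starts of the promoter table were chosen after seeing the data. Unknown depth limits every comparison of the 2 lists: a peak missing from a list may be below its threshold.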

Other observations

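Some entries lay at an annotated start inside a long gene and were therefore more than 5 kb from either gene end. The DMSO list had 3 and the Nutlin-3a list 8, at 6 genes. The strongest was at PIK3R3, which encodes a regulatory subunit of PI3K like PIK3R2, at chr1:46132906-46133542 in the DMSO list. Its fold was 11.2 (rank 17) and its −log10 q 58.7, and the summit lay 97 bp upstream of an internal start and 41768 bp from the nearest gene end. In the Nutlin-3a list its fold was 7.25 (rank 74), its −log10 q 125, and the summit lay 29 bp upstream of another annotated internal start. ATOSA had 2 entries in the Nutlin-3a list (folds 6.65 and 4.03), 30 and 35 bp upstream of internal starts. ATF7IP, a cofactor of histone methylation, had 1 DMSO entry (fold 3.99) and 2 Nutlin-3a entries (folds 5.49 and 5.19). CHIC2 (fold 4.34) and CEP164, a centriole gene (4.95), had an entry in the Nutlin-3a list alone. The nuclear receptor gene NR2F2 had an entry in each list (folds 3.19 and 3.93), which did not overlap. These genes were named after their values were seen.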
